A study of Branchiostoma lanceolatum with 8 samples.

Results

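*GSC*, *SHH*, *PRDM1* and *DKK3* are described here in ectodermal explants from embryos of *Branchiostoma lanceolatum*, the European amphioxus. The 4 genes were taken by name from the authors' deposited tables of Activin-treated against control explants, and each name belonged to 1 gene identifier, present in both tables. They are 4 of 18998 identifiers in all, of 15793 in the table for 11 hours post fertilization (hpf) and of 16733 in the table for 19 hpf. Explants are pieces of the outer embryonic layer, and each of the 4 groups held 2 libraries made from explants of different fertilizations mixed together. The groups were explants with Activin at 11 hpf, controls at 11 hpf, explants with Activin at 19 hpf and controls at 19 hpf, with Activin given as human recombinant protein at 50 ng/mL.

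The organizer is the embryonic region that instructs its neighbours to form the body axis, and in vertebrates strong Nodal or Activin signalling induces it. The homeobox gene *GSC* (goosecoid) is a classic organizer marker whose product represses transcription. *SHH* encodes a Hedgehog ligand that vertebrate notochord and floor plate, the tissues of the midline, secrete to pattern the neural tube. *PRDM1* encodes the zinc finger repressor also called Blimp-1, which vertebrate embryos use in prechordal and anterior endodermal tissue, among others. *DKK3* encodes a divergent secreted protein of the Dickkopf family, a family best known for Wnt antagonists.

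Activin-treated explants held more *GSC* RNA and less *SHH*, *PRDM1* and *DKK3* RNA than control explants, at both times. *GSC* was 6.80-fold higher at 11 hpf and 14.7-fold higher at 19 hpf in the authors' deposited table, and *SHH* was 16.1-fold and 22.4-fold lower. *PRDM1* was 2.82-fold lower at 11 hpf and 20.2-fold lower at 19 hpf, and *DKK3* was 14.7-fold lower at 11 hpf and 4.92-fold lower at 19 hpf, by the same tables. The effect on *PRDM1* and on *DKK3* differed between the times when the difference itself was tested, in opposite directions. At each time 1 of the 4 genes was called higher and 3 were called lower, where a call is an adjusted p below 0.05 in the authors' deposited table. The call of *PRDM1* at 11 hpf and the difference between times of *DKK3* were lost under several of the alternatives given below. Over all genes the tables called 12.0% higher and 24.6% lower at 11 hpf, and 18.7% higher and 27.7% lower at 19 hpf, 36.6% and 46.4% in either direction. The same combination of calls, lower at both times, was found for 2435 of 13528 identifiers in both tables, and higher at both times for 966.

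**Figure D1:**
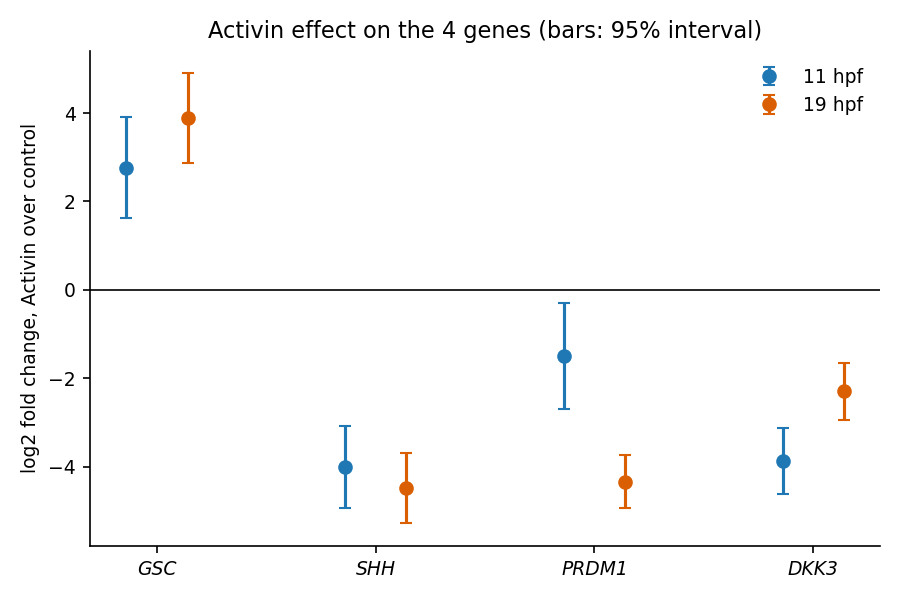
Deposited log2 fold change of Activin over control explants (y axis) for each gene (x axis) at 11 hpf (blue) and 19 hpf (orange), with bars for the 95% interval from the deposited standard error. Only *GSC* lies above 0; the 2 intervals of *PRDM1* do not overlap, and neither do those of *DKK3*.

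Signed values are log2 ratios of the Activin to the control group, each followed after ± by its deposited standard error (2 libraries a group), and adjusted p-values are the authors' two-sided Benjamini-Hochberg values from the Wald statistic. Values per library were not analysed here, so the level in each group was computed back from the deposited overall mean and its log2 ratio, in depth-normalized counts, with no spread of its own. The tables give no depth for single libraries. The headers do not name the numerator of the fold change, and values above 0 were taken to mean more RNA with Activin, because *LEFTY2* and *CHRD*, which Nodal signalling induces in vertebrates, had such values in both tables. *LEFTY2* stood at 6.39 ± 0.53 and 6.92 ± 0.43 and *CHRD* at 4.59 ± 0.43 and 4.75 ± 0.37, at 11 and 19 hpf, in the authors' deposited table. If the numerator were the control group, all directions would turn. Scaling moves all values of a table together: with equal total counts in both groups the tables held 4820 genes higher and 2616 lower at 11 hpf, in place of 1893 and 3880, and 5653 and 3339 at 19 hpf, in place of 3128 and 4640.

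*GSC* (BL18678) had a rebuilt mean of 367 normalized counts in Activin explants and 53.9 in control explants at 11 hpf. At 19 hpf the rebuilt means were 784 in Activin explants and 53.2 in control explants. Control explants thus held *GSC* RNA at nearly the same normalized level in both tables. In the authors' deposited table its log2 fold change was 2.77 ± 0.58 at 11 hpf (adjusted p = 1.38e-05) and 3.88 ± 0.52 at 19 hpf (adjusted p = 9.25e-13). The 95% interval of the fold ran from 3.08 to 15.0 at 11 hpf and from 7.27 to 29.8 at 19 hpf. The effect at 19 hpf exceeded that at 11 hpf by 1.11 ± 0.78, with a 95% interval from -0.42 to 2.64 and a Wald test adjusted p of 0.36 over 13528 genes, so a difference between the times was not detectable with these errors. *GSC* was measured less precisely than genes of like abundance. Its standard error was larger than that of 91.8% of 3226 genes with a mean within 2-fold of its own at 11 hpf, and of 95.5% of 3622 such genes at 19 hpf. The median error of those genes was 0.49 and 0.42.

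*SHH* (BL96143) had a rebuilt mean of 28.7 normalized counts in Activin explants and 463 in control explants at 11 hpf. At 19 hpf it had 62.4 in Activin explants and 1397 in control explants. In the authors' deposited table it stood at -4.01 ± 0.48 at 11 hpf (adjusted p = 5.39e-16) and at -4.48 ± 0.40 at 19 hpf (adjusted p = 5.54e-27). The 95% interval of the fold by which it was lower ran from 8.46 to 30.7 at 11 hpf and from 12.9 to 38.8 at 19 hpf. The difference between the times was -0.47 ± 0.62, with a 95% interval from -1.70 to 0.75 and a Wald test adjusted p of 0.68. Whether fewer cells made *SHH* or each cell held less of its RNA cannot be told apart in such pooled tissue, and the same holds for the other genes.

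*PRDM1* (BL22569) was the gene whose values differed most between the tables. It had a rebuilt mean of 42.1 normalized counts in Activin explants and 119 in control explants at 11 hpf. At 19 hpf it had 375 in Activin explants and 7567 in control explants. The authors' deposited table gave -1.50 ± 0.62 at 11 hpf, adjusted p = 0.042, and -4.34 ± 0.31 at 19 hpf, adjusted p = 2.76e-42. The 95% interval of the fold by which it was lower ran from 1.22 to 6.51 at 11 hpf and from 13.2 to 30.8 at 19 hpf. The call at 11 hpf was the weakest of the 8 and did not hold at an adjusted p below 0.01, under the Benjamini-Yekutieli adjustment or under 3 of 5 other scalings. The fold change at 19 hpf was lower than that at 11 hpf by -2.84 ± 0.69, with a 95% interval from -4.19 to -1.49 and a Wald test adjusted p of 7.46e-04. Over all genes in both tables this test called 16.8%, with 6.70% more negative and 10.1% more positive at 19 hpf.

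The level of *PRDM1* at 19 hpf was 8.91 times that at 11 hpf in Activin explants and 63.7 times in control explants, as ratios of rebuilt means from tables that were normalized separately and therefore not tested. Over 13528 genes the median of this ratio was 1.45 in Activin explants and 1.35 in control explants. A higher ratio than that of *PRDM1* was found for 584 genes in Activin explants, 4.32%, and for 83 genes in controls, 0.614%. The ratios of *SHH* were 2.18 in Activin explants and 3.02 in controls, and those of *GSC* 2.14 in Activin explants and 0.988 in controls. *DKK3* had 3.92 in Activin explants and 1.32 in controls. By these ratios the Activin group differed more between the tables for *GSC* and *DKK3*, and the control group for *SHH* and *PRDM1*. How far a gene's 2 ratios lie apart is its difference in fold change between the times. That difference was called for *PRDM1* and *DKK3*. It was not called for *GSC* (Wald test adjusted p = 0.36) or *SHH* (0.68).

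**Figure D2:**
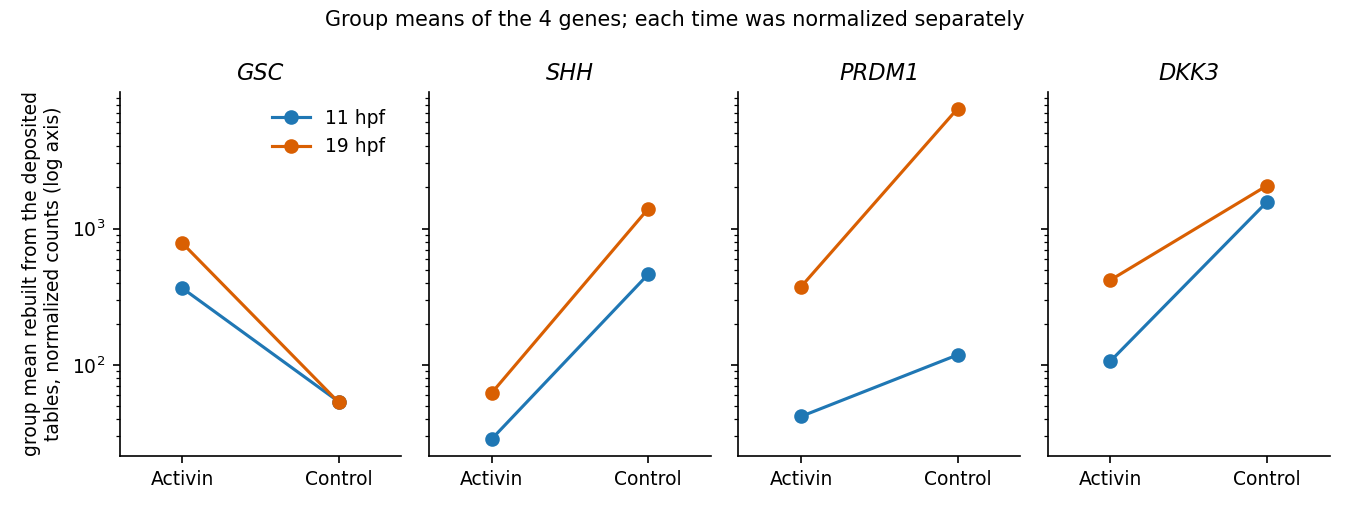
Group means of each gene in Activin explants (left) and control explants (right), in normalized counts on a log axis, computed back from each table's overall mean and log2 ratio, at 11 hpf (blue) and 19 hpf (orange). Means carry no error bar because no value per library was used, and each time was normalized separately. *PRDM1* in controls lies at 119 and 7567, while *GSC* in controls lies at 53.9 and 53.2.

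*DKK3* (BL23931) had a rebuilt mean of 107 normalized counts in Activin explants and 1570 in control explants at 11 hpf. At 19 hpf it had 420 in Activin explants and 2065 in control explants. In the authors' deposited table it stood at -3.87 ± 0.38 at 11 hpf (adjusted p = 3.63e-23) and at -2.30 ± 0.33 at 19 hpf (adjusted p = 3.67e-11). The 95% interval of the fold by which it was lower ran from 8.78 to 24.5 at 11 hpf and from 3.14 to 7.71 at 19 hpf. The fold change was less negative at 19 hpf by 1.58 ± 0.50, with a 95% interval from 0.59 to 2.56 and a Wald test adjusted p of 0.016. That call did not hold at an adjusted p below 0.01, under the Benjamini-Yekutieli adjustment or after centring both times on ribosomal protein genes.

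At 11 hpf the order of the fold changes, from lowest, was *SHH*, *DKK3*, *PRDM1*, *GSC*. The intervals of *SHH* and *DKK3* overlapped almost whole, -4.94 to -3.08 against -4.61 to -3.13, while that of *PRDM1*, -2.70 to -0.29, reached neither. At 19 hpf the order was *SHH*, *PRDM1*, *DKK3*, *GSC*, and the intervals of *SHH* and *PRDM1*, -5.28 to -3.69 and -4.94 to -3.73, overlapped while that of *DKK3*, -2.95 to -1.65, reached neither. No test between genes was made, since the genes share libraries and the tables give no covariance. Among all genes, 10.9% had a lower fold change than *SHH* at 11 hpf and 7.72% at 19 hpf. For *PRDM1* these shares were 27.1% and 8.38%, for *DKK3* 11.7% and 22.8%, and for *GSC* 94.5% and 95.9%.

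**Figure D3:**
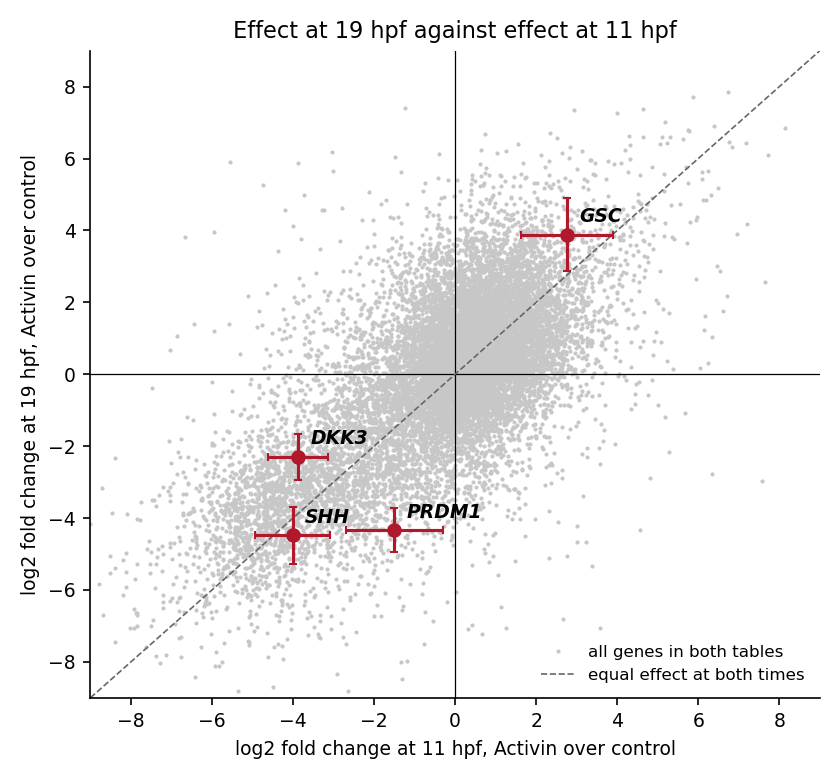
Deposited log2 fold change at 19 hpf (y axis) against that at 11 hpf (x axis), Activin over control, for the 13528 identifiers in both tables (grey) and the 4 genes (red, bars for the 95% interval); points beyond the axes are not drawn. The dashed line marks equal effects: *GSC* and *SHH* lie on it within their intervals, *PRDM1* lies below it and *DKK3* above it.

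The other genes of each gene's pathway come from 7 lists, counted without *GSC*, *SHH*, *PRDM1* and *DKK3*. A list is described by its counts and its median beside those of all genes, whose median log2 fold change was 0.07 at both times. For every list the shares called over all genes were 12.0% higher and 24.6% lower at 11 hpf, and 18.7% and 27.7% at 19 hpf. With equal totals the counts over all genes were 4820 higher and 2616 lower of 15793 at 11 hpf, and 5653 and 3339 of 16733 at 19 hpf. On ribosomal centring they were 1301 and 4578 at 11 hpf, and 1293 and 7177 at 19 hpf. In the list of organizer transcription factors, 3 of 8 rows were called higher and 2 lower at 11 hpf, and 6 higher and 1 lower at 19 hpf, with medians of 0.76 and 1.55. *OTX2*, a regulator of head and anterior brain, lay at 3.39 ± 0.47 at 11 hpf and 5.57 ± 0.31 at 19 hpf in the authors' deposited table. *LHX1*, a LIM homeobox gene of the vertebrate organizer, lay at 3.23 ± 0.36 at 19 hpf in the authors' deposited table. *SIX3*, of the anterior neural plate, was lower like *PRDM1*, at -3.24 ± 0.35 at 11 hpf and -1.88 ± 0.33 at 19 hpf. *GSC* and *OTX2* were each called higher at both times. On ribosomal centring the list had 2 higher and 2 lower at 11 hpf and 3 higher and 1 lower at 19 hpf, and with equal totals 4 and 1 at 11 hpf.

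Secreted antagonists of the organizer bind BMP or Nodal ligands in the extracellular space. In their list, which also holds the pseudoreceptor *BAMBI*, 5 of 8 rows were called higher and 1 lower at 11 hpf. At 19 hpf 7 of 10 were called higher and 1 lower. Medians were 2.75 and 2.79. Apart from *CHRD* and *LEFTY2*, which set the reading of the sign, *TWSG1*, a modulator of BMP and Chordin, lay at 3.79 ± 0.57 at 11 hpf and 2.94 ± 0.39 at 19 hpf in the authors' deposited table. *FST*, which binds Activin itself, lay at 4.92 ± 0.80 at 19 hpf in the authors' deposited table. The row called lower was *BAMBI*, a pseudoreceptor and not a secreted antagonist, at -3.57 ± 0.47 at 11 hpf and -1.64 ± 0.36 at 19 hpf. Genes of the Nodal and Activin pathway, 9 and 10 rows, numbered 6 higher and 0 lower at 11 hpf, also 0 by the Wald test's unadjusted p, and 5 higher and 1 lower at 19 hpf, with medians of 2.55 and 1.02; on ribosomal centring 4 were higher and 4 lower at 19 hpf. As *LEFTY2* and *CHRD* set the sign, the counts of the organizer and Nodal lists are not independent evidence of direction. *SKI*, a repressor of SMAD proteins, lay at 5.02 ± 0.38 and 1.98 ± 0.35, and *CFC1*, a Nodal co-receptor, at 3.55 ± 0.52 at 11 hpf and, not called, at -0.58 ± 0.41 at 19 hpf.

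The called genes of notochord and floor plate other than *SHH* were higher in Activin explants. This list shares *FOXA1* and *FOXA2* with the organizer transcription factors, and it holds *CHRD*, which set the reading of the sign. Its counts are thus not independent evidence of direction either. Of 10 rows in that list 5 were called higher at 11 hpf and 7 at 19 hpf, and 0 lower at either time, by the deposited Wald test's adjusted or unadjusted p, with medians of 1.41 and 1.36. Higher calls numbered 3 at 11 hpf on ribosomal centring, under Benjamini-Yekutieli and at an adjusted p below 0.01, and 8 with equal totals. At 19 hpf they numbered 4 on ribosomal centring, with 1 row lower. *NTN1*, an axon guidance cue of the vertebrate floor plate, lay at 3.45 ± 0.61 at 11 hpf and 4.03 ± 0.47 at 19 hpf in the authors' deposited table. *NKX6-2*, a homeobox gene of the ventral neural tube in vertebrates, lay at 4.14 ± 0.60 and 4.60 ± 0.67. *FOXA1*, of the FoxA group that vertebrate midline and endoderm express, lay at 1.43 ± 0.54 at 11 hpf, a call lost on ribosomal centring (1.10, Wald test adjusted p = 0.097). *NKX2-1*, a homeobox gene of ventral forebrain and anterior endoderm, lay at 4.99 ± 0.55 at 19 hpf in the authors' deposited table. Not all genes of this list were called. *T* (Brachyury), chosen after its values were seen, lay at 0.07 ± 0.44 (BL23557) at 11 hpf, not called. At 19 hpf that row lay at 1.04 ± 0.40 (deposited Wald test adjusted p = 0.025). *T* (BL23554) was called at neither time, at -0.18 ± 0.65 and 1.04 ± 0.72. *SOX6* and *SOX9* were called at neither time, and *FOXA2* was not called at 11 hpf.

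In Hedgehog signalling the ligand is lipid-modified and released, binds the receptor Patched, and so frees Smoothened to act through GLI transcription factors. Of 29 rows in the Hedgehog list 6 were called higher and 10 lower at 11 hpf, and of 33 rows 9 higher and 12 lower at 19 hpf, with medians of -0.37 and 0.34. The split moved both ways with scaling. Equal totals gave 10 higher and 8 lower at 11 hpf and 15 and 10 at 19 hpf, and ribosomal centring gave 5 and 13 at 11 hpf and 3 and 14 at 19 hpf. Under Benjamini-Yekutieli 5 were higher and 11 lower at 19 hpf. Of the Hedgehog ligand names, the other with a row was *IHH*. Whether the rows named *SHH* and *IHH* both encode Hedgehog ligands was not tested. *IHH* had rebuilt means of 46.9 normalized counts in Activin explants and 19.9 in controls at 11 hpf. At 19 hpf it had 130 in Activin explants and 30.5 in controls. It lay at 1.24 ± 0.96, not called, and at 2.10 ± 0.72 (adjusted p = 0.0094) in the authors' deposited table, opposite in sign to *SHH* at both times. The call at 19 hpf was lost on ribosomal centring (1.08, Wald test adjusted p = 0.21) and under Benjamini-Yekutieli (0.097). *HHAT*, the enzyme that adds palmitate to Hedgehog ligands, lay at -4.12 ± 0.47 (BL20019) and -3.49 ± 0.51 (BL12657) at 11 hpf. *SCUBE1* (BL96864), of a family whose vertebrate members help release the ligand, lay at -5.67 ± 0.49 at 11 hpf and -3.91 ± 0.38 at 19 hpf in the authors' deposited table.

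The receptor and its signal transducer were not called at either time. *PTCH1*, the receptor and in vertebrates also a target of the pathway, had rebuilt means of 1755 normalized counts in Activin explants and 1705 in controls at 11 hpf, and 1405 in Activin explants and 1086 in controls at 19 hpf. In the authors' deposited table it lay at 0.04 ± 0.38, with a 95% interval from -0.71 to 0.79, and at 0.37 ± 0.36, from -0.33 to 1.07. *SMO*, which encodes Smoothened, lay at 0.25 ± 0.35, from -0.43 to 0.93, and at 0.14 ± 0.32, from -0.48 to 0.76. The signs of these small values turned on ribosomal centring, and *SMO* at 19 hpf was then called lower, at -0.88 (Wald test adjusted p = 0.013). With equal totals both were called higher at both times, *PTCH1* at 1.02 and 1.23 and *SMO* at 1.22 at 11 hpf, so no statement on their change holds across scalings. *GLI2*, the only GLI1 to GLI3 name with a row analysed here, rose by 2.16 ± 0.38 (adjusted p = 1.03e-07) and 1.22 ± 0.32 (adjusted p = 4.62e-04) in the authors' deposited table, with the call at 19 hpf lost on ribosomal centring (0.20, adjusted p = 0.64).

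*HHIP*, which binds and sequesters the ligand and is a Hedgehog target in vertebrates, lay at -0.55 ± 0.33 at 11 hpf, not called, and at -1.71 ± 0.30 at 19 hpf (adjusted p = 7.82e-08). *GAS1*, a co-receptor, lay at -0.37 ± 0.60 at 11 hpf, not called, and at 2.25 ± 0.33 at 19 hpf (adjusted p = 9.86e-11) in the authors' deposited table. *IHH*, *HHIP* and *GAS1* were chosen after their values were seen. At 19 hpf the strongest Wald statistic in the list belonged to *IFT172*, an intraflagellar transport gene that Hedgehog signalling needs in mammals and that also serves cilia, at -4.10 ± 0.33. *PTCHD1*, which shares the Patched domain, lay at -5.96 ± 0.52 (BL02684) and -4.04 ± 0.41 (BL11574) at 19 hpf. *HHIPL2* (BL95987), related in sequence to *HHIP*, lay at -4.04 ± 0.39 at 11 hpf in the authors' deposited table. Reads of genes that share a name, such as the *PTCHD1*, *SCUBE1* and *HHAT* rows, could be split between copies.

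**Figure D4:**
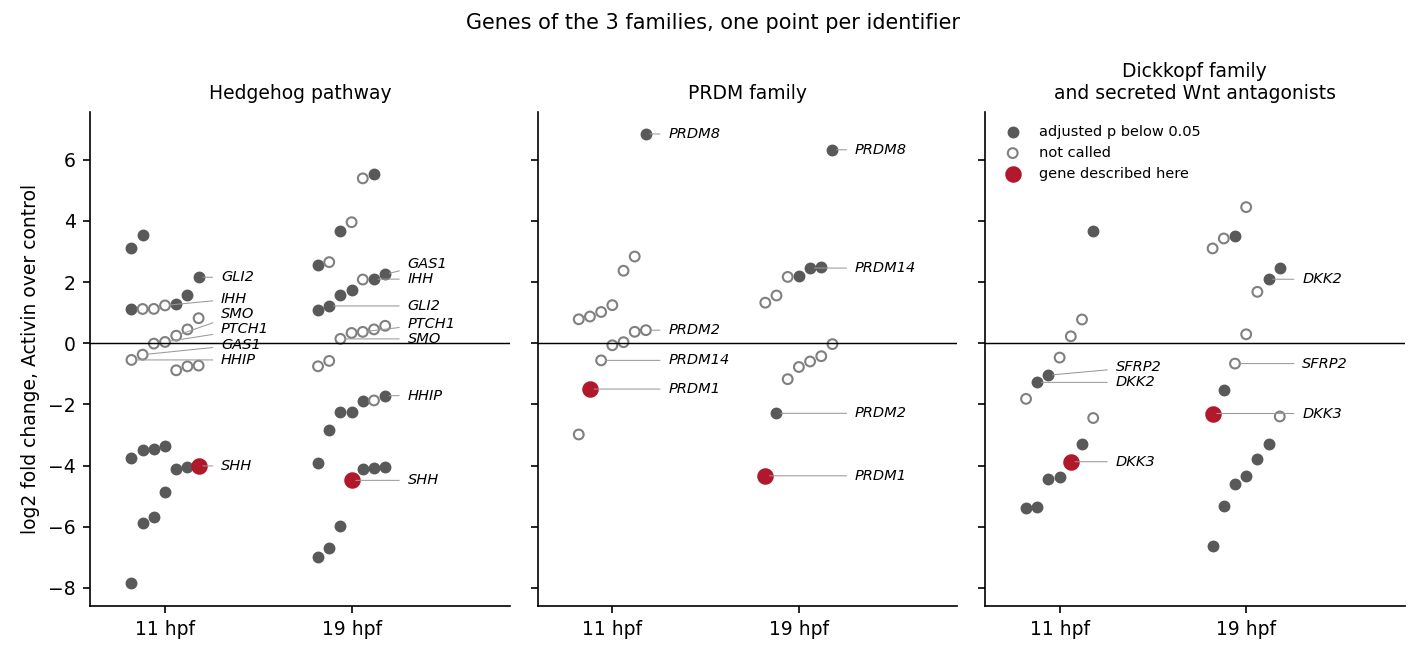
Deposited log2 fold change of Activin over control (y axis) of every row of the Hedgehog, PRDM and Dickkopf with secreted Wnt antagonist lists at 11 and 19 hpf, with filled points for an adjusted p below 0.05 and open points otherwise, *SHH*, *PRDM1* and *DKK3* in red. Sideways spread within a time has no meaning. *SHH* lies near -4 at both times while *PTCH1* and *SMO* lie near 0, and *DKK2* lies at -1.28 and 2.09.

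PRDM genes encode proteins with a PR domain and usually zinc fingers, many of them regulators of chromatin. Of the 13 other rows *PRDM8* was the 1 called at 11 hpf, higher, and 4 were called higher and 1 lower at 19 hpf, with medians of 0.78 and 1.33. On ribosomal centring 2 were higher and 5 lower at 19 hpf, and with equal totals 4 were higher at 11 hpf. *PRDM8*, a neural PRDM gene in mammals, had 164 normalized counts in Activin explants and 1.43 in controls at 11 hpf, and 1147 in Activin explants and 14.3 in controls at 19 hpf. It lay at 6.33 ± 0.48 at 19 hpf in the authors' deposited table, and no fold is given at 11 hpf, where the control mean was under 3 normalized counts. *PRDM14*, a regulator of pluripotency and germ cells in mouse, lay at -0.56 ± 0.34 at 11 hpf, not called, and at 2.46 ± 0.40 at 19 hpf. *PRDM2* was lower like *PRDM1* at 19 hpf, at -2.29 ± 0.40. The *PRDM9* rows are several genes of 1 name, with *PRDM9* (BL01400) at 1.02 ± 0.58 at 11 hpf, not called, and *PRDM9* (BL11170) at 2.21 ± 0.76 at 19 hpf in the authors' deposited table.

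Among Dickkopf genes and secreted Wnt antagonists, 1 of 13 rows was called higher and 7 lower at 11 hpf, and 3 of 17 higher and 7 lower at 19 hpf, with medians of -1.82 and -0.67. With equal totals the counts at 19 hpf were 4 higher and 4 lower, and under Benjamini-Yekutieli 2 and 4. *DKK2*, the other Dickkopf gene with a row, had rebuilt means of 156 normalized counts in Activin explants and 380 in controls at 11 hpf, and 636 in Activin explants and 149 in controls at 19 hpf. It fell by 1.28 ± 0.50 at 11 hpf (adjusted p = 0.032) and rose by 2.09 ± 0.40 at 19 hpf (adjusted p = 1.17e-06) in the authors' deposited table. *DKK2* and *DKK3* were thus both lower at 11 hpf and of opposite sign at 19 hpf. The call of *DKK2* at 11 hpf did not hold below 0.01, under Benjamini-Yekutieli or under 3 of 5 other scalings, the least negative being -0.30 with equal totals. *KREMEN1*, in vertebrates a Dickkopf receptor, had several rows, of which BL21939 lay at -5.39 ± 0.34 at 11 hpf and -4.60 ± 0.41 at 19 hpf, while *KREMEN1* BL10815 lay at -4.44 and 2.47 and *KREMEN1* BL16859 at -4.38 at 11 hpf; no fold is given for BL16859 at 19 hpf, where its control mean was under 3. *NOTUM* (BL06981), an enzyme that inactivates Wnt by removing its lipid, lay at -5.35 ± 0.63 and -4.34 ± 0.58, and *NOTUM* (BL08931) at -3.79 ± 0.60 at 19 hpf in the authors' deposited table. Another row, *NOTUM* (BL08884), chosen after its values were seen, went the other way at 19 hpf. It lay at -0.47 ± 0.51 at 11 hpf, not called, and at 3.52 ± 0.95 at 19 hpf (deposited Wald test adjusted p = 7.57e-04).

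The genes with a symbol, called at both times, whose pair of fold changes lay nearest to each gene's were found among 2543 such genes, by Euclidean distance over these 2 comparisons. Nearest to *GSC* were *FRMD6*, at a distance of 0.04, *ZNF160* at 0.10 and *OSGEP* at 0.14. Nearest to *SHH* were *GALNT13* at 0.09, *CCDC89* at 0.10 and *DNAJC27* at 0.11. *CASC1* at 0.10, *OTOF* at 0.19 and *C14orf166B* at 0.27 were nearest to *PRDM1*. *STARD10* at 0.09, *LAMA2* at 0.11 and *SLC6A11* at 0.11 were nearest to *DKK3*. All these distances were smaller than the standard errors of the fold changes. Within a distance of 0.5 lay 19 genes around *GSC*, 55 around *SHH*, 60 around *DKK3* and 8 around *PRDM1*. *PRDM1* itself was only just called at 11 hpf (deposited Wald test adjusted p = 0.042). Genes near it that were not called at 11 hpf were left out in advance. Its count therefore cannot be compared with those of the other genes.

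Marker lists of the cell types that explants could hold also held called rows. Over all genes 12.0% were called higher and 24.6% lower at 11 hpf, and 18.7% higher and 27.7% lower at 19 hpf. The rebuilt means of 7 epidermal and non-neural ectoderm rows summed to 13436 normalized counts in Activin explants and 324411 in controls at 11 hpf, and those of 8 rows to 39212 in Activin explants and 777896 in controls at 19 hpf. The keratin gene *KRT8* (BL15060) made up 4415 of these in Activin explants and 257288 in controls at 11 hpf, and 31113 in Activin explants and 739980 in controls at 19 hpf. Its log2 fold change was -5.86 ± 0.37 at 11 hpf and -4.57 ± 1.52 at 19 hpf in the authors' deposited table. With that large error, its group means at 19 hpf and the sums they dominate are very uncertain. Of the epidermal and non-neural ectoderm rows 2 were called higher and 5 lower at 11 hpf, and 2 higher and 6 lower at 19 hpf. Neural plate rows summed to 55823 in Activin explants and 22723 in controls at 11 hpf, with 7 higher and 2 lower of 14, and to 66584 in Activin explants and 28089 in controls at 19 hpf, with 8 higher and 2 lower of 13. The neural plate list shares *OTX2* and *SIX3* with the organizer transcription factors. The mesoderm list shares *T* with the notochord and floor plate list. The endoderm list shares *FOXA1* and *FOXA2*, both called higher at 19 hpf, with that list and the organizer transcription factors. Mesoderm rows numbered 3 higher and 0 lower of 10 at 11 hpf and 4 and 0 of 10 at 19 hpf. They summed to 2568 in Activin explants and 924 in controls at 11 hpf, and to 6601 in Activin explants and 874 in controls at 19 hpf. Endoderm rows numbered 2 higher and 1 lower of 6 at 11 hpf and 3 and 1 of 7 at 19 hpf. Their sums were 2687 in Activin explants and 1185 in controls at 11 hpf, and 7293 in Activin explants and 7719 in controls at 19 hpf. The ectodermal label thus had its epidermal and neural markers present in both groups. The part of these shifts in the values of *GSC*, *SHH*, *PRDM1* and *DKK3* was not tested.

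**Figure D5:**
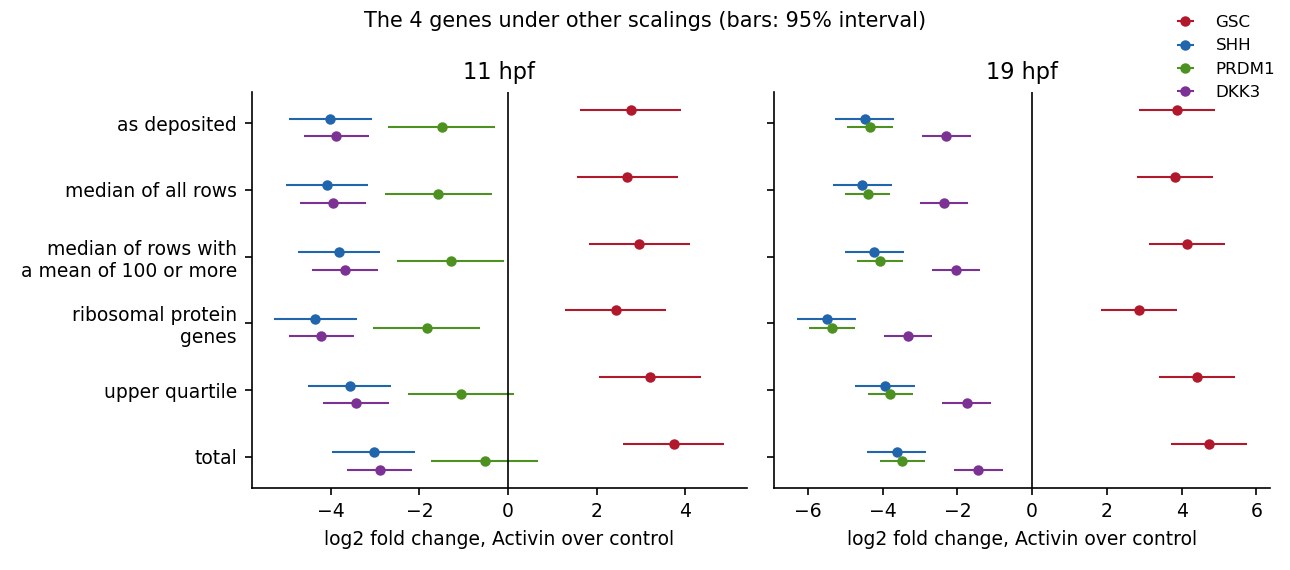
Log2 fold change of Activin over control (x axis, bars for the 95% interval) of the 4 genes at 11 hpf (left) and 19 hpf (right), as deposited and after 5 other scalings (y axis). *GSC* stays above 0 and *SHH* and *DKK3* below 0 with their whole intervals; *PRDM1* at 11 hpf reaches 0 with equal upper quartiles, where it lies at -1.06, and with equal totals, where it lies at -0.52.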

How the data were processed

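Poly(A) RNA of 8 libraries, 2 in each of 4 groups, was sequenced, and 2 tables of comparisons, 1 per time, were analysed. HISAT2, featureCounts and edgeR are named without versions, per the submitters' processing notes; build, annotation and strand setting are not given in the sources used here. Per the file headers, the columns carry the names DESeq2 writes, though the notes do not list that tool. The authors' mean column is a signal, the average normalized count over a table's libraries. Fold changes were deposited on the log2 scale, as were their errors. The test column is a score deposited by the authors, equal to the fold change over its error in every row. Each deposited row also has a raw and an adjusted p-value, the adjusted one a Benjamini-Hochberg value over the deposited rows.

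The planned edgeR fit for counts was not run, since no counts per library were used; the deposited values served, as planned for such tables. Group means were rebuilt assuming equal weight of both groups, and a fold was not read where one was under 3. The difference between times was tested as a Wald test on both fold changes and errors, over 13528 genes with Benjamini-Hochberg adjustment. The times share no library. This test was first run on simulated data with normal errors of the deposited size. That run could not check whether errors estimated from 2 libraries a group are right. Intervals cover 95% under a normal distribution. No depth of single libraries is given. Each p-value measures variation among 2 mixed explant samples a group, as the authors' model estimated it. The genes and lists were chosen with earlier results of these data known. Named list genes are up to 4 per list and time with the largest Wald statistic, plus *PTCH1*, *SMO* and GLI genes; a few genes this rule names are not reported here, though list counts include them. Alternatives were 5 scalings, a stricter threshold, the Benjamini-Yekutieli adjustment, a minimum mean of 20 and a minimum log2 change of 1. Names are those the tables pair with each identifier; the reference gene table is of another assembly and was not used. Computations used Python 3.11.15, pandas 2.3.3 and scipy 1.17.1.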

Additional observations from a re-analysis of the deposited data

Results flagged for a closer look

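The effect of Activin differed between 19 and 11 hpf, by the Wald test of the difference with Benjamini-Hochberg adjustment over 13528 genes, for *PRDM1*, by -2.84 ± 0.69 (adjusted p = 7.46e-04), and for *DKK3*, by 1.58 ± 0.50 (adjusted p = 0.016). Both genes were lower in Activin explants at both times. The same test passed for *DKK2*, by 3.37 ± 0.64, for *KREMEN1* (BL10815), by 6.91 ± 1.10, for *NOTUM* (BL08884), by 3.98 ± 1.08, and the other way for *SOSTDC1*, by -5.22 ± 1.28. Among PRDM genes it passed for *PRDM14*, by 3.02 ± 0.52, and for *PRDM2*, by -2.72 ± 0.64. Hedgehog list genes that passed were *IFT172*, by -3.36 ± 0.51, *HHIPL1*, by -2.04 ± 0.54, *GAS1*, by 2.63 ± 0.69, *HHIPL2*, by 1.80 ± 0.56, and *SCUBE1* (BL96864), by 1.77 ± 0.62. Organizer genes that passed were *LHX1*, by 2.62 ± 0.57, *OTX2*, by 2.18 ± 0.56, *SIX3*, by 1.36 ± 0.48, *HHEX*, by 3.64 ± 1.19, and *BAMBI*, by 1.92 ± 0.59. *CFC1*, by -4.12 ± 0.66, *SKI*, by -3.04 ± 0.52, and *SMAD6*, by -2.27 ± 0.73, passed among Nodal and Activin pathway genes. *NOTUM* (BL08884), *SOSTDC1*, *HHIPL1*, *HHEX* and *SMAD6* were chosen after their values were seen. Ribosomal centring subtracted 0.34 from every log2 fold change at 11 hpf and 1.02 at 19 hpf, which lowers every difference alike. The call of *DKK3* was lost on that centring. For the genes named here other than *PRDM1* and *DKK3*, the difference was not tested under other scalings.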

How the results depend on the processing

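*GSC*, *SHH* and *DKK3* at both times and *PRDM1* at 19 hpf kept their direction and their call under all 9 alternatives. *PRDM1* at 11 hpf, -1.50 as deposited, stayed negative but was no longer called at an adjusted p below 0.01 (-1.50, adjusted p = 0.042), under Benjamini-Yekutieli (-1.50, 0.43), centred on genes with a mean of 100 or more (-1.30, 0.083), with equal upper quartiles (-1.06, 0.16) or with equal totals (-0.52, 0.47). The difference between times of *DKK3*, 1.58, was lost at an adjusted p below 0.01 (1.58, Wald test adjusted p = 0.016), under Benjamini-Yekutieli (1.58, 0.16) and on ribosomal centring (0.89, 0.21), which left 0 of the 4 genes more positive at 19 hpf by the Wald test, in place of 1, the unadjusted p of *DKK3* being 0.0017. That of *PRDM1* ran from -3.52 to -2.73 and stayed called. Calls for higher among list genes numbered 37 with equal totals at 11 hpf, in place of 23, and 19 on ribosomal centring at 19 hpf, in place of 35. Signs turned on ribosomal centring for *SMO* (-0.092 at 11 hpf, -0.88 at 19 hpf) and *PTCH1* (-0.30 and -0.65), for *PTCH1* at 11 hpf on the median of all rows (-0.031), with equal totals at 11 hpf for *PRDM14* (0.42), *HHIP* (0.43) and *GAS1* (0.60), and with equal upper quartiles for *GAS1* (0.063). Over all genes, calls for higher were 1073 at 11 hpf and 1960 at 19 hpf under Benjamini-Yekutieli, 3036 at 11 hpf with equal upper quartiles and 1293 at 19 hpf on ribosomal centring, with 7177 lower. The difference test called 820 more positive and 501 more negative below 0.01, 682 and 421 under Benjamini-Yekutieli, and 687 and 2053 on ribosomal centring, in place of 1362 and 906. The cause of these moves was not tested. Leaving out replicates and comparing tools were not run, since they need values per library. No paired analysis was possible because the tables hold no value per replicate. What depth limits could not be read, since the tables give none for single libraries.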
